A study of Danio rerio with 12 samples.

Results

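The connexin genes of the zebrafish were followed across 4 lines of larvae that carry or lack the pannexin genes *panx1a* and *panx1b*. A gene was taken as a connexin when its zebrafish symbol began with gja, gjb, gjc, gjd, gje or cx and a number. Of the 31261 Ensembl genes counted, 36 met this rule, and 34 of them had at least 1 count in all 12 libraries and were tested among 24261 such genes. The exceptions were *gja11* (0 to 1 counts per library) and *gjd6* (0 to 4 counts per library), which were not tested. The gene *cx55.5*, a horizontal cell connexin that the study names, had no matching identifier in the name table and was not analysed here.

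Connexins are membrane-spanning proteins that assemble into hemichannels, and hemichannels of neighboring cells dock into gap junctions that pass ions and small molecules from cell to cell. Pannexins have the same membrane topology without being related in sequence, and they mostly act as channels between the cell and its surroundings. The connexin subfamilies are named by sequence, and single members are known for particular tissues: *GJA1* (cx43) in heart, glia and fin bone, *GJA3* in lens fiber cells, the gjd connexins at electrical synapses, and *gja9* and *gja10* genes in retinal horizontal cells. The question put to the data was whether connexin transcripts change when *panx1a*, *panx1b* or both are lost.

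TL, the Tupfel long fin strain, served as the control, and the paper calls it wild type. It was set beside *panx1a*-/-, *panx1b*-/- and a double knock-out (DKO). All were larvae at 6 days post fertilization (dpf) that were untreated and kept in light. The paper states that its fish were housed on a daily cycle of light and dark, and it does not describe constant light for the RNA-seq larvae. Each line gave 3 libraries, each from a pool of about 30 whole larvae, and the *panx1b*-/- line was raised from a single founder with a frameshifting deletion made by TALENs. How the double knock-out line was made is not given in the sources used here. The knock-out lines are 1 line each, so the genotype cannot be told apart from other differences between the lines. In pooled whole larvae, fewer cells of a type and less RNA per cell cannot be told apart either.

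The libraries held between 20581029 and 29259122 counts. Values below are CPM, counts scaled to the library total, after TMM normalization, and a gene was called regulated when edgeR's quasi-likelihood test gave a Benjamini-Hochberg adjusted p-value under 0.05 over all 24261 genes together with a p-value under 0.001. "Adjusted p" below always means this edgeR value. The targeted genes were checked first. The name table gives the symbol PANX1 to 2 identifiers and does not say which is *panx1a*. PANX1 (ENSDARG00000025285) had 292, 249 and 399 counts in TL, 82, 123 and 106 in *panx1a*-/-, 200, 221 and 224 in *panx1b*-/-, and 93, 88 and 98 in the DKO. It was low in every library of both lines that lack *panx1a*, at 3.86 to 4.81 CPM in *panx1a*-/- and 4.09 to 4.35 CPM in the DKO. In *panx1b*-/- it had 9.11 to 9.84 CPM, also below the 11.7 to 14.4 CPM of TL. PANX1 (ENSDARG00000014910) had 154, 123 and 130 counts in TL, 160, 226 and 211 in *panx1a*-/-, 128, 140 and 163 in *panx1b*-/-, and 79, 83 and 107 in the DKO. Its counts were lowest in the DKO and were not low in *panx1b*-/-. In CPM it ranged from 4.69 to 6.94 in TL, 7.52 to 8.83 in *panx1a*-/-, 5.83 to 7.10 in *panx1b*-/- and 3.65 to 4.75 in the DKO. The *panx1a*-/- libraries thus lay above TL, and the other lines overlapped TL. Transcript level alone did not check the *panx1b*-/- label. By RT-qPCR, the study likewise found no significant drop of *panx1b* mRNA in 6 dpf *panx1b*-/- larvae.

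Few connexins changed. In *panx1a*-/- larvae 2 of 34 connexins were regulated, 1 higher and 1 lower, where 5.14% of all genes tested were regulated (2.26% higher and 2.88% lower). In *panx1b*-/- larvae 1 of 34 was regulated, and lower, against 5.91% of all genes (3.12% lower). In the DKO 2 of 34 were regulated, both lower, against 8% of all genes (5.22% lower). Between DKO and *panx1a*-/- 2 of 34 connexins were regulated, both lower, where 6.35% of all genes were regulated (3.76% lower). Between DKO and *panx1b*-/- 1 of 34 was regulated, and higher, against 9.36% of all genes (3.85% higher). The shares of connexins called, from 2.94% to 5.88%, were near or below the share of all genes in each of these comparisons. In all, 5 connexins were regulated in at least 1 comparison, namely *gjc4a.2*, *gja12.1*, *gja13.1*, *gja13.2* and *GJA1*, and 29 in none. The share of all genes regulated in at least 1 comparison was not computed, so this count has no background beside it. The 3 comparisons with TL share the TL libraries, so their values are given side by side and not as repeats of each other.

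The median log2 fold change of the 34 connexins was −0.01 in *panx1a*-/-, −0.18 in *panx1b*-/- and −0.05 in the DKO against TL, beside −0.01, 0.01 and 0.00 over all genes tested. Against the single knock-outs, the DKO had a connexin median of −0.11 (*panx1a*-/-) and 0.03 (*panx1b*-/-), where the median of all genes was 0.00 in both. The summed connexin level was 226 to 251 CPM in TL, 231 to 249 in *panx1a*-/-, 187 to 210 in *panx1b*-/- and 211 to 222 in the DKO. The *panx1b*-/- and DKO libraries thus lay below every TL library, while those of *panx1a*-/- overlapped them. *GJA1* made up 17.6 of the 42.2 CPM by which the mean of *panx1b*-/- was below that of TL. In the DKO the mean sum was 23.7 CPM below TL, and *GJA1* was 1.47 CPM above.

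**Figure D1:**
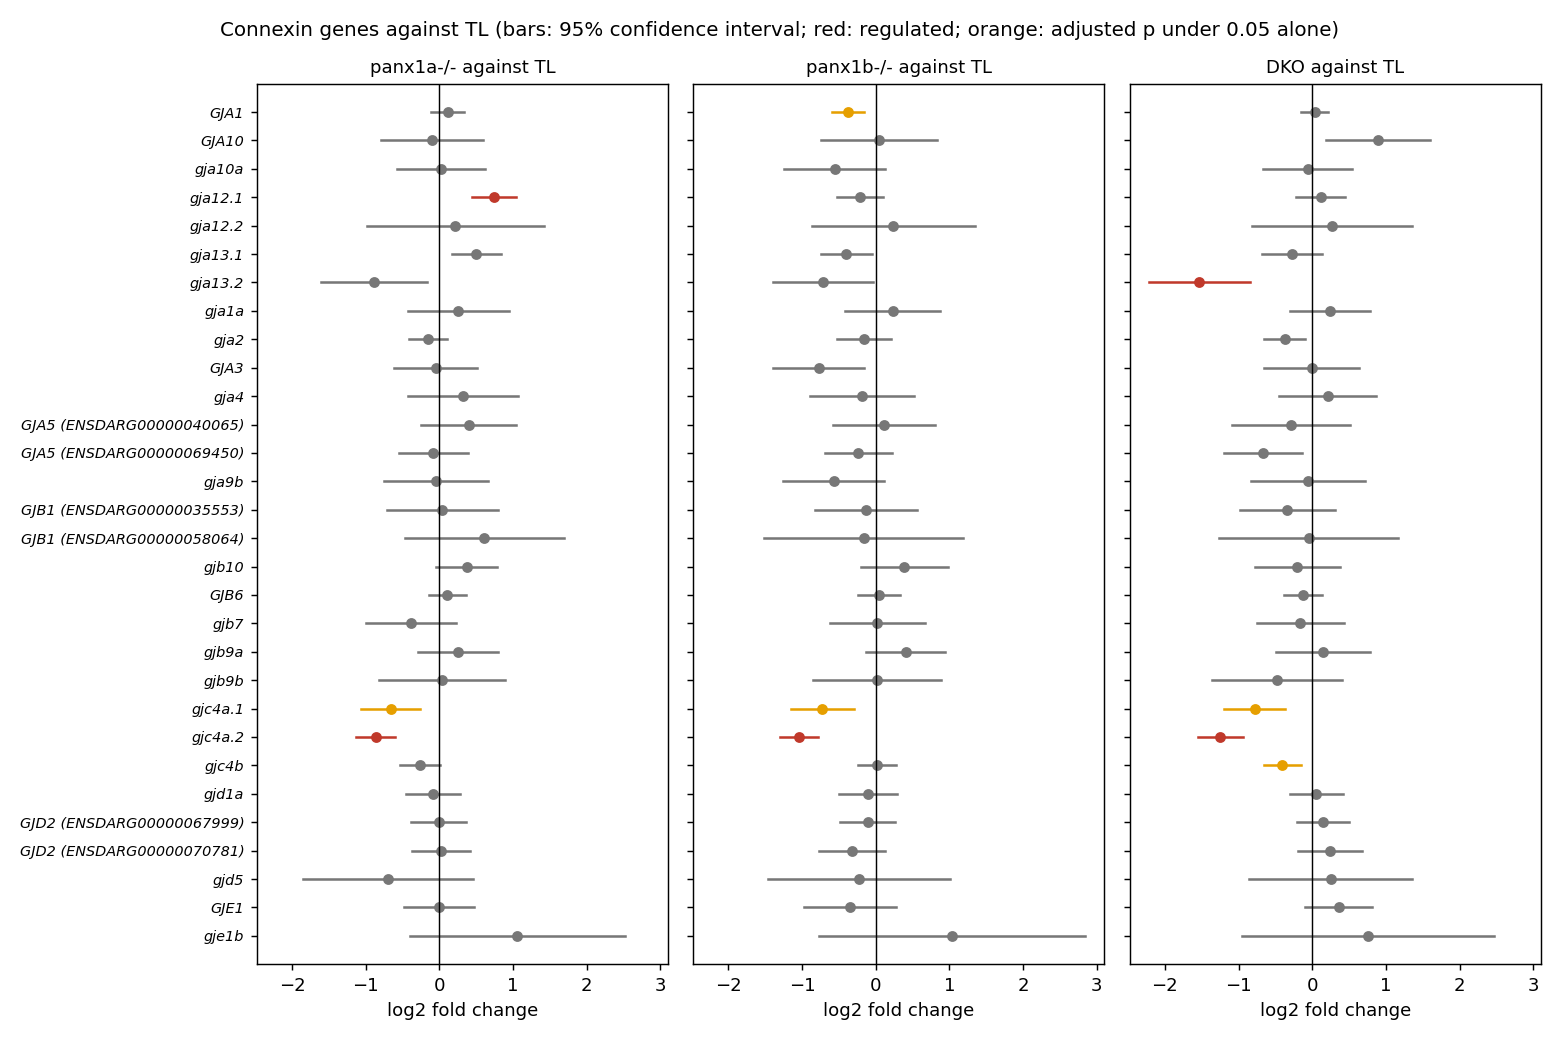
The log2 fold change of 30 of the 34 connexins (rows, by subfamily) against TL in *panx1a*-/- (left), *panx1b*-/- (middle) and DKO (right), with points for the estimate and bars for the 95% confidence interval, red for regulated genes and orange for an adjusted p-value under 0.05 alone. *gjc4a.2* is the one gene in red in all 3 panels, at −0.87, −1.04 and −1.25.

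The gjc subfamily held the connexin that was regulated against TL in every knock-out line. The share of all genes regulated in all 3 lines was not computed, so whether this is rare is not known. *gjc4a.2* (ENSDARG00000094990), 1 of 3 zebrafish gjc4 genes, had 15.2, 16.7 and 15.3 CPM in the TL libraries. It had 8.23, 9.77 and 7.88 CPM in *panx1a*-/-, 7.83, 7.17 and 7.76 CPM in *panx1b*-/-, and 8.14, 5.62 and 6.12 CPM in the DKO. All 9 knock-out libraries lay well below the 3 TL libraries, and the DKO overlapped each single knock-out. The *panx1a*-/- libraries lay just above those of *panx1b*-/-. *gjc4a.2* fell by 0.87 on the log2 scale in *panx1a*-/- (adjusted p = 0.00134, standard error 0.12), to 54.9% of TL. It fell by 1.04 in *panx1b*-/- (standard error 0.12, adjusted p = 0.000309), to 48.6% of TL, and by 1.25 in the DKO (standard error 0.14, adjusted p = 0.000342), to 42.2% of TL. The DKO did not differ past the cut-offs from *panx1a*-/- (log2 fold change −0.38, 95% confidence interval −0.72 to −0.04, adjusted p = 0.135) or from *panx1b*-/- (−0.20, interval −0.53 to 0.14, adjusted p = 0.405). *gjc4a.2* stayed regulated against TL in all 3 lines under each of the 15 alternative analyses of each comparison, the omission of any 1 library included.

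*gjc4a.1* (cx44.2), which in the RefSeq gene order is separated from *gjc4a.2* by 1 protein-coding gene, had 4.28, 5.12 and 5.95 CPM in TL. The values were 3.20, 2.93 and 3.61 CPM in *panx1a*-/-, 3.64, 2.98 and 2.62 in *panx1b*-/-, and 3.37, 2.46 and 3.11 in the DKO, and no knock-out library reached the lowest TL library. The log2 fold changes against TL were −0.66 (adjusted p = 0.0459), −0.73 (adjusted p = 0.0353) and −0.78 (adjusted p = 0.017), with standard errors of 0.18, 0.19 and 0.19. Each had an adjusted p-value under 0.05 but a p-value above 0.001, and *gjc4a.1* was therefore not regulated under both cut-offs. Of the 15 alternative analyses of each comparison, 1, 1 and 5 called it in *panx1a*-/-, *panx1b*-/- and the DKO. The alternatives include the adjusted p-value alone. Both are members of 1 gene pair on the same chromosome, and the sources used here do not state how reads shared by both were counted.

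*gjc4b* (cx43.4), known in zebrafish for its part in left-right patterning, had 16.7, 17.3 and 21.4 CPM in TL and 16.7, 15.2 and 14.3 CPM in *panx1a*-/-. It had 18.4, 18.7 and 18.6 CPM in *panx1b*-/- and 13.8, 13.7 and 14.2 CPM in the DKO. The DKO libraries were the lowest of the 12, and those of *panx1b*-/- lay within the range of TL. Against TL the DKO value was −0.41 (standard error 0.12, adjusted p = 0.0349), and against *panx1b*-/- it was −0.41 (standard error 0.09, adjusted p = 0.0107). Neither passed the p-value cut-off of 0.001, at edgeR p-values of 0.00501 and 0.00100005, the latter a bare miss. Of 15 alternative analyses each, which include the adjusted p-value alone, 1 called the value against TL and 4 that against *panx1b*-/-. In *panx1a*-/- and *panx1b*-/- the log2 fold changes against TL were −0.26 and 0.01.

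**Figure D2:**
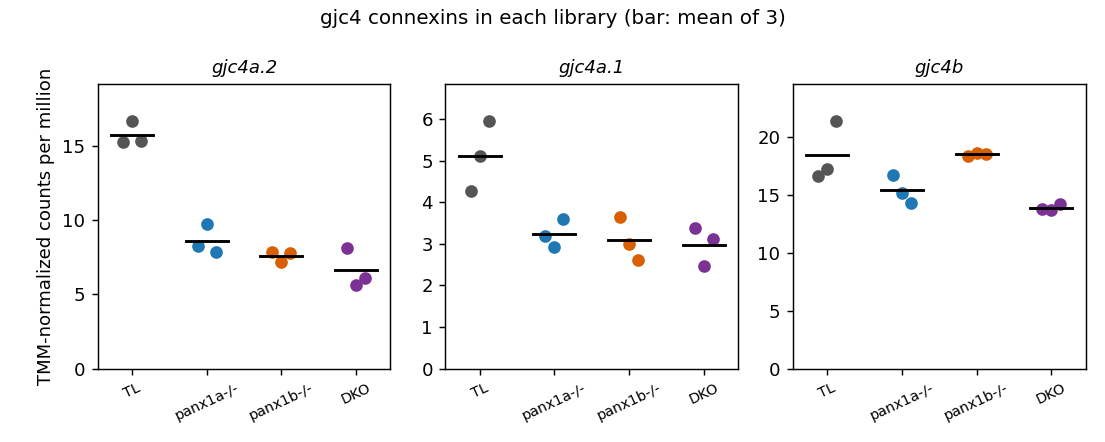
TMM-normalized CPM of the 3 gjc4 connexins in each library, by line, with a point per library and a bar at the mean of 3. The TL points of *gjc4a.2* (15.2 to 16.7 CPM) stand above all knock-out points (5.62 to 9.77 CPM), and the *gjc4b* points are lowest in the DKO (13.7 to 14.2 CPM).

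Of 17 marker lists for larval tissues, 1 had a summed level without overlap against TL in the same direction in all 3 knock-out lines. The 5 blood markers summed to 88.9 to 111.8 CPM in TL, 112.4 to 135 CPM in *panx1a*-/-, 113 to 123 CPM in *panx1b*-/- and 137 to 164 CPM in the DKO, opposite in direction to *gjc4a.2*. The *panx1a*-/- and TL ranges nearly touched, and the members did not all move alike. Of the 5, 3 had a log2 fold change above 0 in *panx1a*-/- (median 0.05), 4 in *panx1b*-/- (0.41) and 5 in the DKO (0.32). None of the 17 marker lists had a summed level below TL without overlap in all 3 lines. The median log2 fold change against TL was below 0 in all 3 lines for the lists of skeletal muscle (−0.14 in *panx1a*-/-, −0.30 in *panx1b*-/- and −0.23 in the DKO), endothelium (−0.11, −0.18 and −0.19) and heart (−0.04, −0.39 and −0.41), as it was for *gjc4a.2*, while their sums overlapped TL in at least 1 line. No gene of the 17 lists was at 0 in any library. The part of tissue composition in the *gjc4a.2* result was not tested.

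The gja subfamily held the other regulated connexins, and these 4 genes lie in one stretch of the genome. In the RefSeq order of protein-coding genes, *gja1b* (here *GJA1*), *gja13.2* and *gja12.2* follow one another, 1 gene (*tbc1d32*) comes next, and *gja12.1*, *gja13.1* and *gja11* follow. The names *gja13.1* and *gja13.2* were exchanged between annotation releases, so which of the 2 identifiers neighbors *GJA1* cannot be told apart by name. *gja12.1* and both gja13 genes are given below by their Ensembl identifiers.

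*gja12.1* (cx28.9, ENSDARG00000041797) had 11.5, 13.8 and 15.1 CPM in TL, 25.7, 19.3 and 23.0 CPM in *panx1a*-/-, 10.6, 10.9 and 13.12 CPM in *panx1b*-/-, and 17.9, 13.0 and 12.9 CPM in the DKO. The *panx1a*-/- libraries were the highest of the 12, and the other 3 lines overlapped. It rose by 0.75 on the log2 scale in *panx1a*-/- against TL (adjusted p = 0.00693, standard error 0.14), to 168% of TL. Without *panx1a*-/- replicate 1 or replicate 3 this call was lost, at log2 fold changes of 0.64 and 0.72. In the DKO *gja12.1* was lower than in *panx1a*-/- (log2 fold change −0.63, standard error 0.14, adjusted p = 0.0141), and did not differ past the cut-offs from TL (0.12, standard error 0.15, adjusted p = 0.624). The call against *panx1a*-/- held in 2 of the 6 fits that left out 1 library.

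*gja13.1* (ENSDARG00000041787) had 4.87, 5.26 and 6.03 CPM in TL and 7.38, 6.84 and 8.70 CPM in *panx1a*-/-. It had 4.10, 3.88 and 4.23 CPM in *panx1b*-/-, and 5.73, 3.81 and 3.82 CPM in the DKO. As with *gja12.1*, the *panx1a*-/- libraries were the highest. The *panx1b*-/- libraries lay below TL, and DKO replicate 1 lay within the TL range. The DKO was lower than *panx1a*-/- (log2 fold change −0.78, standard error 0.18, adjusted p = 0.0144), a call that held in 2 of 6 fits without 1 library. The values against TL were 0.50 in *panx1a*-/- (adjusted p = 0.0672), −0.40 in *panx1b*-/- (adjusted p = 0.142) and −0.28 in the DKO (adjusted p = 0.33), none of which passed the test.

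*gja13.2* (ENSDARG00000076789) had 3.60, 1.83 and 1.91 CPM in TL and 1.46, 0.899 and 1.61 CPM in *panx1a*-/-. It had 1.87, 1.16 and 1.39 CPM in *panx1b*-/- and 0.786, 0.836 and 0.888 CPM in the DKO. The DKO libraries were the lowest of the 12, and TL replicate 1 was far above all others. *gja13.2* fell by 1.53 on the log2 scale in the DKO against TL (adjusted p = 0.00827, standard error 0.31), to 34.6% of TL. Without TL replicate 1 the log2 fold change was −1.16 and the call was lost, as it was without any 1 of the DKO libraries (−1.48 to −1.58). It had the lowest log2 fold change among connexins of at least 1 CPM in *panx1a*-/- as well (−0.89, standard error 0.32, adjusted p = 0.122), and was at −0.71 in *panx1b*-/- (adjusted p = 0.176), neither past the cut-offs. Against *panx1b*-/- the DKO value was −0.81 (standard error 0.27, adjusted p = 0.0584).

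*GJA1* (cx43, ENSDARG00000041799), whose loss of function in zebrafish gives short fins, held 32.4% of all connexin CPM, a share of counts that is not corrected for gene length. It had 69.6, 75.5 and 78.8 CPM in TL, 72.0, 80.5 and 89.4 CPM in *panx1a*-/-, 52.87, 63.3 and 55.0 CPM in *panx1b*-/-, and 74.0, 80.4 and 73.9 CPM in the DKO. The *panx1b*-/- libraries were the lowest of the 12, and the other 3 lines overlapped. *GJA1* was higher in the DKO than in *panx1b*-/- (log2 fold change 0.42, standard error 0.09, adjusted p = 0.0098). This call was lost with library size in place of TMM and held in 1 of 6 fits without 1 library, where the log2 fold change was 0.36 to 0.50. Against TL, *panx1b*-/- was at −0.38 (standard error 0.10, adjusted p = 0.0342), past the adjusted cut-off but with a p-value of 0.0031 in edgeR.

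Heart markers, from a tissue that expresses *GJA1* in many vertebrates, were also low in *panx1b*-/-. The 9 heart markers summed to 160 to 199 CPM in TL, 173 to 193 CPM in *panx1a*-/-, 118 to 154 CPM in *panx1b*-/- and 148 to 182 CPM in the DKO. In *panx1b*-/- all 9 had a log2 fold change below 0 and 2 were regulated, and the median was −0.39. Of all genes tested, 51.6% were above 0 there and 3.12% were regulated and lower. This direction was not particular to heart, since 0 of 9 lens markers (median −0.37) and 1 of 7 skeletal muscle markers (−0.30) were above 0. Of the 17 lists, 2 had a sum below TL without overlap in *panx1b*-/-, heart and pigment cell, and 6 had a sum above. In the DKO against TL the median of the heart markers was −0.41, with 1 of 9 above 0 and 1 regulated (lower), where *GJA1* was at 0.03. Of all genes tested, 5.22% were regulated and lower in the DKO. In the DKO against *panx1b*-/- their median was 0.08, beside 0.42 for *GJA1*. The radial and Muller glia markers, from another tissue known for *GJA1*, overlapped TL in *panx1b*-/-, at 902 to 1009 against 978 to 1107 CPM. Of these 10 markers, 5 had a log2 fold change above 0 there, 1 was regulated (lower) and the median was 0.00. The part of the heart or of glia in the *GJA1* values was not tested. *gja12.2*, the remaining tested gene of the stretch, was counted at 0.141 to 1.32 CPM, with log2 fold changes of 0.22, 0.24 and 0.27 against TL and standard errors of 0.49 to 0.54.

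**Figure D3:**
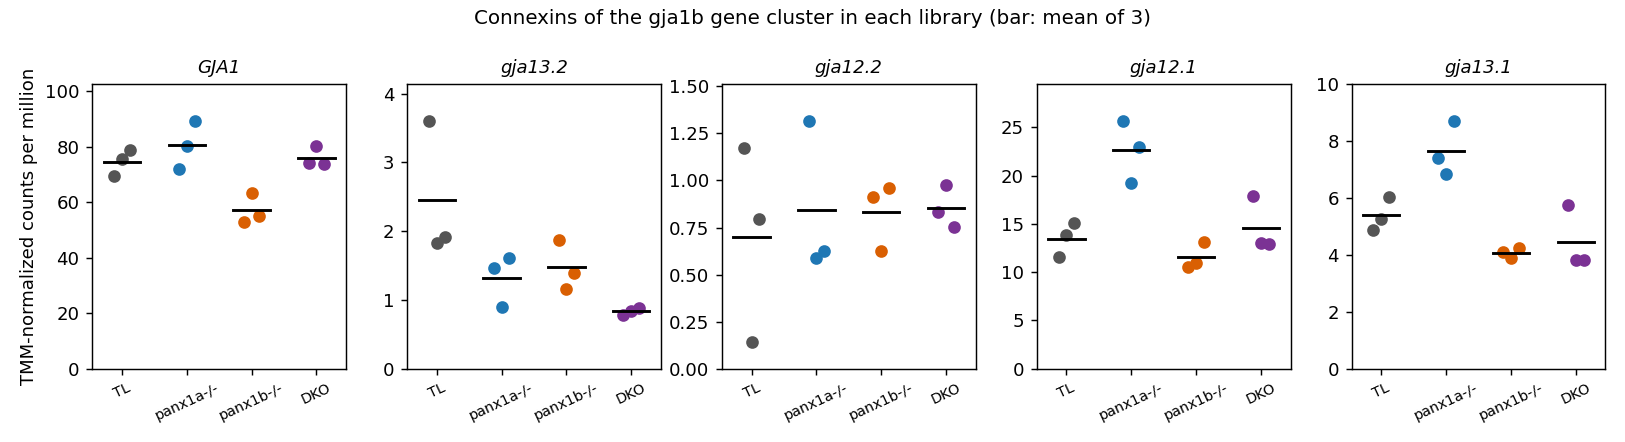
TMM-normalized CPM of *GJA1*, *gja13.2*, *gja12.2*, *gja12.1* and *gja13.1*, which lie in one stretch of the genome, with a point per library and a bar at the mean of 3. *gja12.1* and *gja13.1* are highest in *panx1a*-/- (19.3 to 25.7 and 6.84 to 8.70 CPM), *gja13.2* is lowest in the DKO (0.786 to 0.888 CPM) and *GJA1* is lowest in *panx1b*-/- (52.87 to 63.3 CPM).

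Of the other gja genes, *gja2* (cx39.9), known from embryonic slow muscle in zebrafish, ranged from 18.9 to 23.1 CPM in TL, 17.8 to 21.5 CPM in *panx1a*-/-, 14.2 to 23.9 CPM in *panx1b*-/- and 14.5 to 19.7 CPM in the DKO. The lines overlapped, and the values against TL were −0.16, −0.16 and −0.37 (standard errors 0.12, 0.16 and 0.13, adjusted p = 0.464, 0.606 and 0.0681). The pair under *GJA5* includes the zebrafish leopard gene of stripe pattern. Whether the TL strain itself carries variants of these genes was not examined. Both identifiers had a log2 fold change below 0 in the DKO against TL. *GJA5* (ENSDARG00000069450) had 2.48, 2.21 and 2.09 CPM in TL and 1.02, 1.58 and 1.64 CPM in the DKO, without overlap, and its log2 fold change was −0.67 (adjusted p = 0.0787, standard error 0.24). *GJA5* (ENSDARG00000040065) was at −0.29 in the DKO (standard error 0.36) with overlapping libraries, and the difference between the pair was not tested. In *panx1a*-/- this identifier was at 0.40 (standard error 0.29, adjusted p = 0.461), just above TL without overlap. *GJA5* (ENSDARG00000069450) was at −0.24 in *panx1b*-/- (standard error 0.20, adjusted p = 0.531), just below TL without overlap. *gja4* (cx39.4), a pigment pattern gene, and *gja1a* had values between −0.19 and 0.32 against TL in all lines, none past the test.

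Of the lens connexins, *GJA3* (cx48.5), *GJE1* (cx23) and *gje1b* are described. None of the 3 was regulated in any comparison, where 5.14% to 9.36% of all genes were regulated in each. *GJA3* had 1.49, 1.50 and 1.05 CPM in TL and 0.683, 0.802 and 0.828 CPM in *panx1b*-/-, which did not overlap, and 1.02, 1.16 and 1.78 CPM in the DKO. The log2 fold changes were −0.78 in *panx1b*-/- against TL (standard error 0.28, adjusted p = 0.108) and 0.77 in the DKO against *panx1b*-/- (standard error 0.30, adjusted p = 0.0939). The lens markers had the same signs, with 0 of 9 above 0 in *panx1b*-/- against TL (median −0.37) and 9 of 9 above 0 in the DKO against *panx1b*-/- (median 0.82), none of them regulated. Of all genes tested, 51.6% and 50.5% were above 0 in these comparisons. The part of the lens markers in the *GJA3* values was not tested.

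*GJE1* ranged from 2.16 to 3.10 CPM in TL, 2.21 to 3.13 CPM in *panx1a*-/-, 1.59 to 3.12 CPM in *panx1b*-/- and 2.91 to 3.81 CPM in the DKO. It had the highest log2 fold change among connexins of at least 1 CPM in the DKO against TL, at 0.36 (standard error 0.20, adjusted p = 0.254), with overlapping libraries. The values of *gje1b*, at 0.0444 to 0.305 CPM, had standard errors of 0.67 to 0.82 against TL and carry little weight. The 9 lens markers summed to 1290 to 1573 CPM in TL, 1028 to 1443 CPM in *panx1a*-/-, 768 to 1548 CPM in *panx1b*-/- and 1860 to 2108 CPM in the DKO. All 9 had a log2 fold change above 0 in the DKO against TL, 3 of them regulated, with a median of 0.41. Of all genes tested, 50.2% were above 0 and 2.78% were regulated and higher in that comparison. The 3 lens connexins summed to 3.69 to 4.46 CPM in TL and 4.16 to 5.59 CPM in the DKO, which overlapped.

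**Figure D4:**
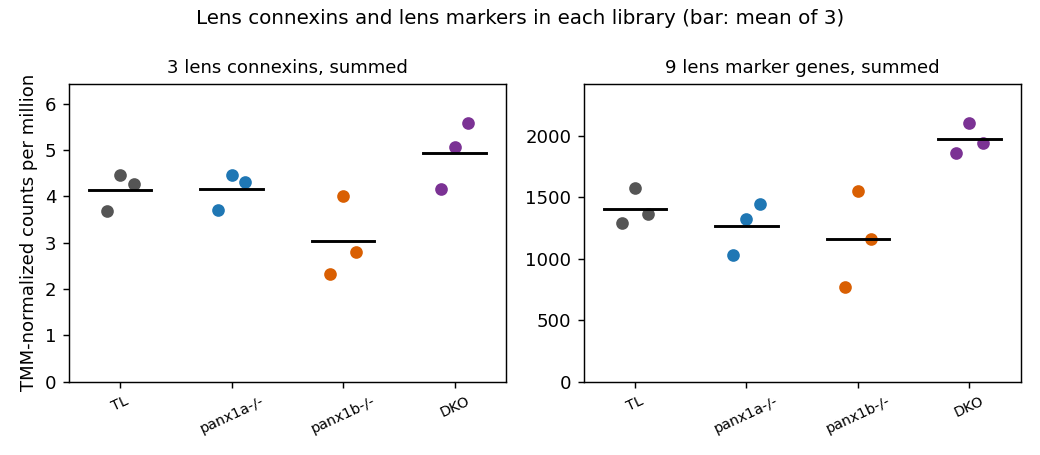
Summed TMM-normalized CPM of 3 lens connexins, *GJA3*, *GJE1* and *gje1b* (left), and of the 9 lens markers (right) in each library, by line, with a point per library and a bar at the mean of 3. The DKO libraries stand above TL for the markers (1860 to 2108 against 1290 to 1573 CPM) and overlap TL for the connexins (4.16 to 5.59 against 3.69 to 4.46 CPM).

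The horizontal cell connexins were *gja9b* (cx52.9), *gja10a* (cx52.7) and *GJA10*. *GJA10* had 0.766, 0.517 and 0.830 CPM in TL, 0.705, 0.703 and 0.588 CPM in *panx1a*-/-, 0.455, 0.757 and 0.959 CPM in *panx1b*-/-, and 0.878, 1.39 and 1.69 CPM in the DKO. All DKO libraries lay above those of TL and *panx1a*-/-, and the lowest of them below the highest of *panx1b*-/-. The log2 fold changes of the DKO were 0.89 against TL (standard error 0.32, adjusted p = 0.0814), 0.99 against *panx1a*-/- (standard error 0.31, adjusted p = 0.0543) and 0.86 against *panx1b*-/- (standard error 0.34, adjusted p = 0.106), none past the test. It was the one connexin without overlap above TL in the DKO, where 16.1% of all genes tested were. *gja9b* and *gja10a* were at −0.06 and −0.06 in the DKO against TL and at −0.57 and −0.56 in *panx1b*-/-, with standard errors of 0.28 to 0.35 and overlapping libraries. The list of 7 horizontal cell markers held *lhx1a*, *TFAP2B*, *BARHL2*, *ISL1*, *CALB2* and both *OMP* identifiers. Whether they mark only this cell type in whole larvae was not tested. All 7 had a log2 fold change above 0 in the DKO against TL, where 50.2% of all genes did. None was regulated, and the median was 0.37. This direction was not particular to them, since all 8 neuron markers (median 0.26) and all 9 lens markers (median 0.41) were above 0 as well. The part of the horizontal cell markers in the *GJA10* values was not tested.

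The connexins of electrical synapses were *gjd1a* (cx34.1) and the pair under *GJD2*, which in zebrafish join neurons such as the Mauthner cell to their inputs. *gjd1a* ranged from 8.33 to 11.8 CPM in TL, 8.23 to 11.6 CPM in *panx1a*-/-, 7.70 to 11.3 CPM in *panx1b*-/- and 8.83 to 11.8 CPM in the DKO. The lines overlapped nearly fully, and the log2 fold changes against TL were −0.09, −0.11 and 0.05 with standard errors of 0.16 to 0.18. *GJD2* (ENSDARG00000067999) lay between −0.11 and 0.15 against TL in the 3 lines, also with overlap. *GJD2* (ENSDARG00000070781) had 5.36, 8.97 and 6.93 CPM in TL, 4.87, 6.50 and 5.49 CPM in *panx1b*-/-, and 6.84, 8.96 and 9.23 CPM in the DKO. The DKO lay above *panx1b*-/- without overlap, with a log2 fold change of 0.57 (adjusted p = 0.0308, standard error 0.16), which missed the p-value cut-off of 0.001. All 8 neuron markers had a log2 fold change above 0 in the same comparison, with none regulated and a median of 0.21, as had all 9 lens markers (median 0.82). The part of the neuron markers was not tested. *gjd5*, at 0.141 to 0.786 CPM, had standard errors of 0.50 to 0.56 against TL.

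None of the 8 gjb connexins was regulated in any comparison, where 5.14% to 9.36% of all genes were regulated in each. With so few genes, this is not a result particular to the subfamily. *GJB6*, whose mammalian counterpart serves the inner ear and skin, ranged from 12.3 to 13.7 CPM in TL, 12.8 to 15.7 CPM in *panx1a*-/-, 11.3 to 14.8 CPM in *panx1b*-/- and 10.9 to 13.6 CPM in the DKO. Its log2 fold changes against TL were 0.11, 0.04 and −0.13, with 95% confidence intervals that lie between −0.38 and 0.37. *gjb10* (cx34.4) had 3.33, 3.52 and 2.45 CPM in TL, 4.28, 4.02 and 3.68 CPM in *panx1a*-/-, 5.33, 4.23 and 2.48 CPM in *panx1b*-/-, and 3.79, 1.90 and 2.35 CPM in the DKO. Only the *panx1a*-/- libraries stood apart from TL, at a log2 fold change of 0.37 (adjusted p = 0.269). *gjb9a* had the highest value among connexins of at least 1 CPM in *panx1b*-/- (0.41, standard error 0.24, adjusted p = 0.334). The remaining gjb genes, *gjb7*, *gjb9b* and the pair under *GJB1*, the latter known from liver and Schwann cells in mammals, overlapped TL except *GJB1* (ENSDARG00000035553) in the DKO (−0.34, adjusted p = 0.45).

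Counted by overlap alone, 7 of 34 connexins did not overlap TL in *panx1a*-/-, where 28.5% of all genes tested did not. The count was also 7 in *panx1b*-/- (background 29.7%) and 7 in the DKO (background 35.7%). All 7 in *panx1b*-/- were lower than TL, where 15% of all genes were lower without overlap. Between DKO and *panx1a*-/- 8 of 34 did not overlap (background 31.3%), and between DKO and *panx1b*-/- 9 of 34 did not (background 36.1%). In each comparison the share of connexins without overlap, from 20.6% to 26.5%, was below that of all genes.

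The interaction of the genotypes, the difference between the DKO and the sum of the single knock-out changes, was fitted with edgeR on all 12 libraries. None of the 34 connexins passed both cut-offs, where 5.33% of all genes did, and DESeq2 also called 0. Before adjustment, 20.6% of the connexins were under the threshold of 0.05 in edgeR, where 23.2% of all genes were. This share comprised 7 genes. *gjc4a.2* had an interaction of 0.67 on the log2 scale (adjusted p = 0.0422 in edgeR, standard error 0.19), which missed the p-value cut-off, and its DKO level lay above what the single changes add up to. The interaction of *gjb10* was the lowest among connexins of at least 1 CPM (−0.95, standard error 0.39, adjusted p = 0.148 in edgeR). Interaction values had a median standard error of 0.38 over the connexins, against 0.25 to 0.27 in the pairwise comparisons.

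**Figure D5:**
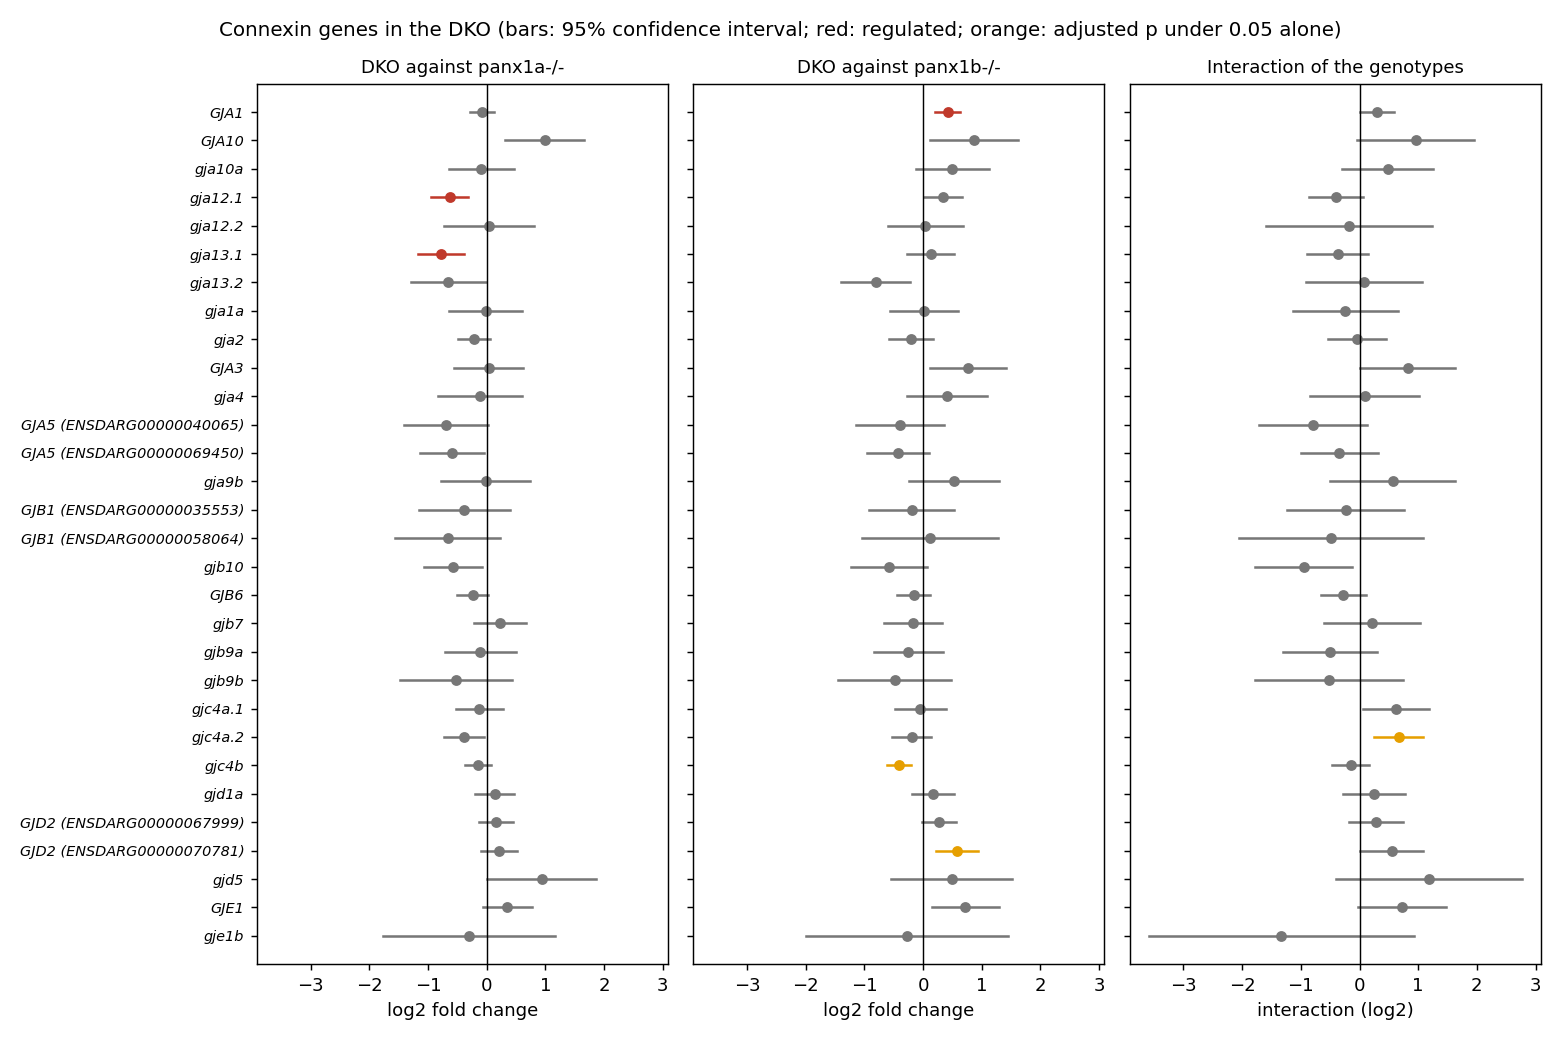
The log2 fold change of 30 of the 34 connexins in the DKO against *panx1a*-/- (left) and against *panx1b*-/- (middle), and the interaction of both genotypes (right), with points for the estimate and bars for the 95% confidence interval, red for regulated genes and orange for an adjusted p-value under 0.05 alone. *gja12.1* and *gja13.1* are red on the left (−0.63 and −0.78), *GJA1* in the middle (0.42), and no gene on the right.

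The list of proteins that hold or regulate gap junctions held 12 tested genes, among them the ZO-1 scaffolds (*TJP1*, *tjp1b*), neurobeachin, drebrin, caveolin-1, Src and casein kinase 1 delta. None was regulated against TL in any line, where 5.14% to 8% of all genes were, a share that comes to at most about 1 gene of 12. The only call was *csnk1da*, a casein kinase 1 delta gene, which fell by 0.38 in the DKO against *panx1a*-/- (standard error 0.08, adjusted p = 0.00965), where 3.76% of all genes were regulated and lower. The summed level of this list was 1038 to 1066 CPM in TL, 1128 to 1194 CPM in *panx1a*-/-, 1056 to 1088 CPM in *panx1b*-/- and 1069 to 1106 CPM in the DKO. The *panx1a*-/- and DKO libraries lay above TL without overlap, although no single member passed the test there. The DKO and TL ranges nearly touched. Of the 12 genes, 10 had a log2 fold change above 0 in *panx1a*-/- and 7 in the DKO.

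The other large-pore channels, 16 tested genes of the pannexin, CALHM and LRRC8 families, had 1 gene lower in *panx1a*-/-, 1 in *panx1b*-/- and 2 in the DKO against TL, and none higher. Of all genes tested, 2.88%, 3.12% and 5.22% were lower in these comparisons. The 17 matched genes of this list summed to 142 to 148 CPM in TL and 125 to 134 CPM in *panx1a*-/-. Their sum was 136 to 138 CPM in *panx1b*-/- and 119 to 121 CPM in the DKO. All 3 lines thus lay below TL without overlap, in a sum that includes the PANX1 genes. Of the 16 tested genes, 7, 8 and 2 had a log2 fold change above 0 in these lines. The *panx1a*-/- call and 1 of the DKO calls were the PANX1 gene that was low in both lines lacking *panx1a*. PANX1 (ENSDARG00000025285) fell by 1.61 in *panx1a*-/- (standard error 0.14, adjusted p = 7.96e-05) and by 1.62 in the DKO (standard error 0.12, adjusted p = 3.20e-05). *CALHM2* (ENSDARG00000039482), of a family of calcium homeostasis modulator channels, fell by 0.85 in *panx1b*-/- (adjusted p = 0.0163) and by 0.99 in the DKO (adjusted p = 0.0035). PANX1 (ENSDARG00000014910) was lower in the DKO than in *panx1a*-/- (log2 fold change −1.01, adjusted p = 0.000983) and had a negative interaction (−1.15, standard error 0.23). *PANX2* and *PANX3* were not regulated in any comparison, with values against TL of −0.31, 0.10 and −0.51 for *PANX2* and −0.70, −0.20 and −0.97 for *PANX3*, which had 10 to 33 counts per library.

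Precision followed the counts. The 95% confidence interval lay within 1 log2 unit of 0 for 23 connexins in *panx1a*-/-, 24 in *panx1b*-/- and 23 in the DKO against TL. For the other 11, 10 and 11 the interval reached a 2-fold change. These include regulated genes with narrow intervals, such as *gjc4a.2* (−1.13 to −0.60) and *gja12.1* (0.44 to 1.05) in *panx1a*-/-, so reaching this bound does not by itself mean low precision. The 13 connexins with a mean under 30 counts had a median standard error of 0.34 in *panx1a*-/- against TL, and the other 21 had 0.18. With 3 libraries against 3, an exact permutation test of a single gene cannot go below p = 0.1, so the p-values above depend on the variance that edgeR estimates across all genes.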

How the data were processed

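RNA-seq libraries of whole 6 dpf larvae were compared, 3 per line. The authors deposited raw counts, 1 whole number per Ensembl gene and library, without normalization. The submitters' processing notes name Trim Galore 0.4.4, TopHat2 2.0.11, HTSeq 0.6.1p2 and the danRer11 build, whereas the paper describes RSEM with bowtie2. Which of them made the deposited counts, and the strand setting, are not given in the sources used here. Reads shared by near-identical or overlapping connexin genes may have been split or dropped.

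Counts were tested in R 4.3.3 with edgeR 4.0.16 (TMM, glmQLFit, glmQLFTest) over 24261 genes with at least 1 count in all 12 libraries. Pairwise fits used the 6 libraries compared, and the interaction used 12. Standard errors are the fold change divided by the root of F. The code was tested on simulated counts. Library totals were 20581029 to 29259122 (median 22229811). The p-values measure the spread between pools.

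The connexins and gene lists were chosen with earlier results of these data known. Connexins described in full were those regulated in any comparison, the highest and lowest log2 fold change per comparison among those with a mean of at least 1 CPM, and the 8 with the highest mean CPM. That last group was to be taken per coding length. Lengths and sequences were not used here, so CPM took its place, and levels of different genes were not compared. Of the 34 connexins tested, 4 enter the counts and medians but are not reported singly here. *GJA5* (ENSDARG00000069450), *GJA10*, *GJD2* (ENSDARG00000070781) and *gjc4a.1* were described after their values were seen, as was the number of fits in which a call held. Gene order came from RefSeq names (assembly GRCz12tu). Results were recomputed with the size factors of DESeq2, with library size as the only scaling, with the test of DESeq2 1.42.0, with 3 other count filters, without the p-value cut-off, with a replicate block, with 1 fit of all 12 libraries and without each library.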

Additional observations from a re-analysis of the deposited data

Results flagged for a closer look

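One connexin had an effect of *panx1b* loss that differed between backgrounds at an adjusted p-value under 0.05. In *gjc4a.2* the log2 fold change was −1.04 for *panx1b* loss in TL and −0.38 for *panx1b* loss in the *panx1a*-/- line, a difference of 0.67 (standard error 0.19, adjusted p = 0.0422, edgeR interaction test on 12 libraries). With its p-value of 0.00357 it did not pass the cut-off of 0.001. Over 20 alternatives the difference ranged from 0.50 to 0.77, and the adjusted p-value from 0.0207 to 0.0957. Groups of 3 libraries are too small to mark single libraries as outlying.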

How the results depend on the processing

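No count of connexins changed more than 1.5 times under DESeq2's size factors, DESeq2, no minimum count or 1 fit of all 12 libraries, and none of the 16 connexin values with an adjusted p-value under 0.05 changed sign under any alternative. With the adjusted p-value alone, 3 of 34 connexins passed in *panx1b*-/- against TL, where 11% of all genes did. The DKO had 4 against TL (17.5% of all genes) and 3 against *panx1b*-/- (18.6%), and the interaction had 1 (9.27%). These shares of connexins, from 2.94% to 11.8%, were each below the share of all genes. In the DKO against *panx1a*-/- 2 of 34 passed (12.8% of all genes). In *panx1a*-/- against TL 3 of 34 passed, or 8.82% beside 8.8% of all genes, which is not below. At least 10 counts in all 12 libraries left 0 in the DKO against *panx1a*-/- and gave 2 in the DKO against *panx1b*-/-, as did filterByExpr with 2, while library size alone gave 0. Leaving out 1 library gave 1 to 2 regulated connexins in *panx1a*-/-, 1 in each fit of *panx1b*-/- and 1 to 2 in the DKO against TL. It gave 0 to 3 in the DKO against *panx1a*-/-, 0 to 2 against *panx1b*-/- and 0 in the interaction. Calls ended without *panx1a*-/- replicate 1 or 3 (*gja12.1*, *gja13.1*) and DKO replicate 2 or 3 (*gja12.1*, *gja13.1*, *gja13.2*, *GJA1*). They also ended without DKO replicate 1 (*gja13.2*, *GJA1*), TL replicate 1 (*gja13.2*) and *panx1b*-/- replicate 1 or 3 (*GJA1*). Fewer libraries also lower the power of a fit. The median log2 fold change of all genes stayed within 0.03 of 0.

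Replicate numbers were not taken as pairs, since deviations of same-numbered libraries correlated between −0.19 and 0.35 and in no comparison did every pair exceed 0.1. This rule cannot tell whether only some libraries share a batch. Replicate 1 of TL, *panx1b*-/- and the DKO correlated with each other at 0.194 to 0.349. With replicate 1 of *panx1a*-/- they correlated at −0.06 to 0.08. With the replicate block the count was 1 in the DKO against *panx1a*-/-, where *gja13.1* was lost, and 3 in the DKO against *panx1b*-/-. Levels per coding length, and their alternative, were not run.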
